A study of Arabidopsis thaliana with 8 samples.

Results

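Class III peroxidases are secreted haem enzymes of plants, and 60 Arabidopsis loci of this family, taken from a list of locus codes set by gene family rather than by a threshold on these values, were followed here through rml1 and wild type seedlings. The list does not hold the whole family. Of the 60 loci, 58 were measured among 29920 loci, and the neighbouring loci AT1G05240 and AT1G05250 were not analysed here. All 60 codes matched the RefSeq gene table of assembly TAIR10.1, which gives 15 of them a name other than the code. The other members are given by their codes, without a role except where a role group (members listed together by known function) is named.

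The samples were 3 pools of rml1 shoots and 3 pools of Columbia-0 wild type shoots, with 1 pool of rml1 roots and 1 pool of wild type roots, each hybridised to 1 tiling array. The root meristemless1 mutant is impaired in GSH1, which starts glutathione synthesis, and it forms a very short primary root. All seedlings were 7 days old, raised upright at 20 degrees under 16 h of light a day, with nitrate (1 mM KNO3), phosphate (100 µM NaH2PO4) and 0.5% sucrose in the agar. The rml1 shoot pools held 61, 65 and 108 shoots and the wild type shoot pools 30 each, while the root pools held 234 rml1 roots and 90 wild type roots. The series asks how redox state bears on hormone signalling in root growth. Levels are RMA values in log2 units, so that a difference of 1 is a 2-fold difference. Levels of different members are not ranked against each other, as the probes assigned to each locus are not given here. Some are placed against the median or lower quartile of all loci on an array.

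Peroxidases of this class use hydrogen peroxide in the cell wall. They couple lignin monomers and wall proteins such as extensins, which stiffens the wall, and under other conditions they generate reactive oxygen species, which can loosen it or serve in defence. In Arabidopsis roots the family takes part in root hair growth, in the lignified walls of xylem and endodermis, and in the balance of superoxide and hydrogen peroxide set by the transcription factor UPB1 at the border between dividing and elongating cells. Hydrogen peroxide is supplied in part from superoxide made by the RBOH NADPH oxidases of the plasma membrane.

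Most peroxidases were root transcripts in both genotypes. In a limma fit over the 2 root and 6 shoot arrays with genotype as a second term, 42 of 58 members were higher in roots (adjusted p under 0.05; percent of all loci called in this direction 23.7) and 6 were lower in roots (percent of all loci 15.2), while 10 did not pass. The median difference of the members was 3.15 log2 units, against 0.02 over all loci. Of the 42, 40 exceeded 4-fold and 14 exceeded 16-fold. The median member level was 7.55 in the rml1 root and 7.34 in the wild type root, against 3.61 to 4.17 in the 3 rml1 shoots and 3.73 to 4.24 in their wild type counterparts. Taken by genotype, the root exceeded the shoot mean by at least 1 log2 unit in both for 37 members, in rml1 but not the wild type for 6 (PRX52 among them), in the wild type but not rml1 for 5 (AT4G16270 among them), and in neither for 10. These counts by genotype, and those above 4-fold and 16-fold, were not made over all loci. In this fit neither genotype has a replicate root. The spread comes from the shoot replicates and from any response to genotype that differs between organs. Spread among roots of the same genotype was not measured. A bulk sample cannot tell fewer cells of a type from less RNA per cell.

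AT3G01190 showed the largest difference between organs. It had levels of 9.02 in the rml1 root and 10.39 in the wild type root, against shoot values of 2.32 to 2.78 for rml1 and 2.49 to 3.69 for the wild type, a difference of 6.89 (SE 0.31, limma adjusted p = 2.08e-06). RHS19 (AT5G67400) and RHS18 (AT5G22410), named for root hair specific expression, were also higher in roots. RHS19 had levels of 8.36 in the rml1 root and 8.73 in the wild type root, against shoot values of 3.01 to 4.38 for rml1 and 3.60 to 3.79 for the wild type (difference 4.81, SE 0.32). For RHS18 these values were 5.56 and 6.45 in the rml1 and wild type roots, with shoot values of 1.98 to 2.59 for rml1 and 2.05 to 2.58 for the wild type (difference 3.71, SE 0.24). The root and shoot arrays did not overlap for any of these 3 genes, as for 39 members in all with roots higher (percent of all loci 21.9). Other members with large root differences were AT4G26010 (5.62, SE 0.39), AT4G30170 (5.58, SE 0.44), AT5G64100 (4.82, SE 0.41) and AT1G68850 (4.72, SE 0.14).

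**Figure D1:**
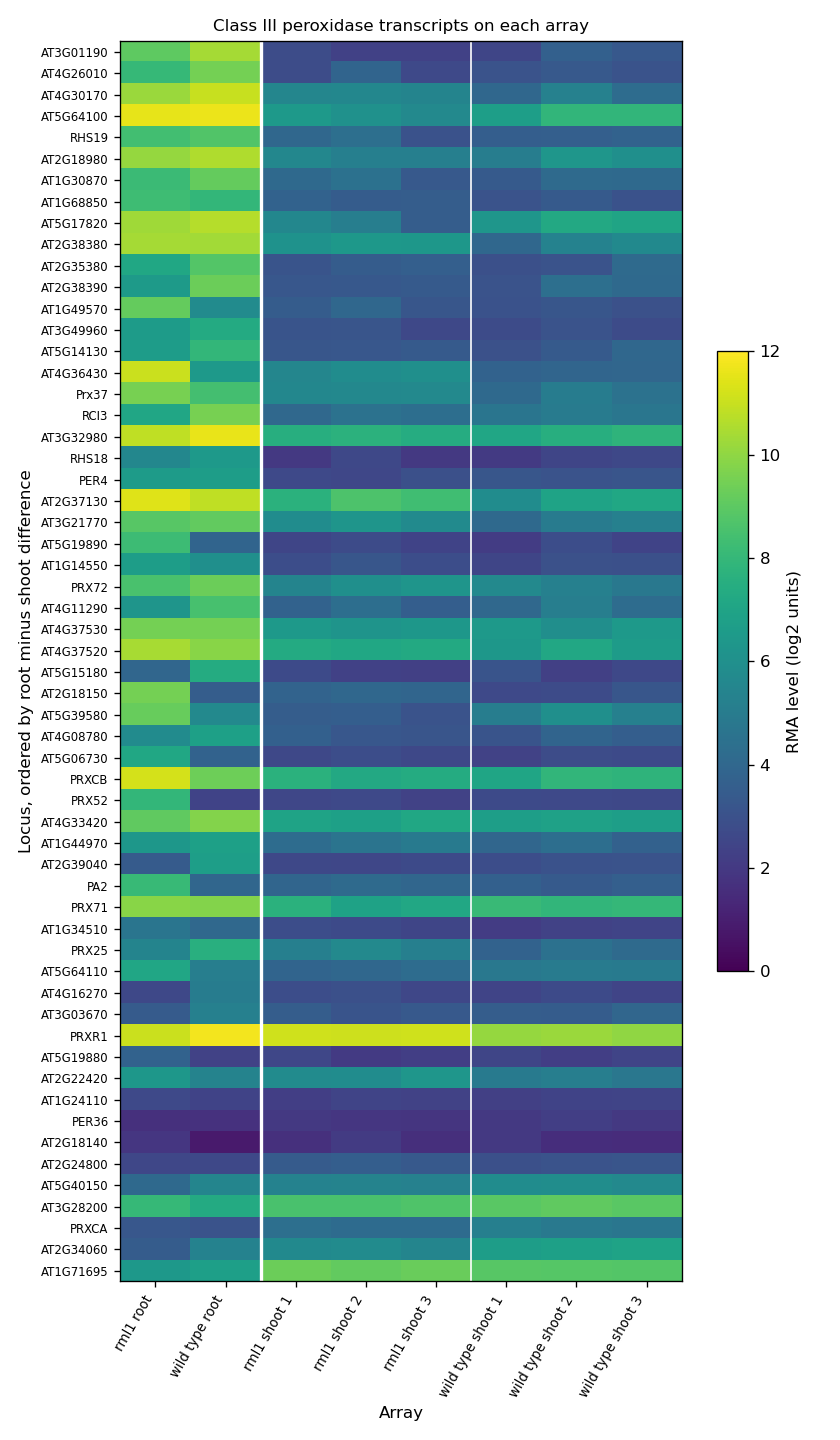
Levels of the 58 measured peroxidases (rows) on the 8 arrays (columns), as RMA values in log2 units by colour, with rows ordered by the root minus shoot difference. The 2 root columns stand out from the 6 shoot columns for most rows, and the 6 rows at the low end of the order hold the members that were lower in roots.

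A small group ran the other way. AT1G71695 had levels of 6.40 in the rml1 root and 6.80 in the wild type root, against shoot values of 9.11 to 9.31 for rml1 and 8.77 to 8.90 for the wild type, a difference of -2.43 (SE 0.17, limma adjusted p = 1.8e-05). AT2G34060 (-1.82, SE 0.17), PRXCA (AT3G49110; -1.43, SE 0.21), AT3G28200 (-1.13, SE 0.22), AT5G40150 (-0.78, SE 0.19) and AT2G24800 (-0.68, SE 0.14) were the others. PRXCA and its relative PRXCB (AT3G49120) both take part in the oxidative burst of defence, and they differed in organ. PRXCB was higher in roots, at 11.25 in the rml1 root and 9.33 in the wild type root against shoot values of 7.26 to 7.66 for rml1 and 7.04 to 7.88 for the wild type (difference 2.78, SE 0.44). PER36 (AT3G50990), known from the seed coat, stayed between 1.68 and 2.21 on all 8 arrays and did not pass.

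Of the 48 organ calls, 6 were lost when 1 array was left out. AT2G24800 (adjusted p = 0.0556) and AT5G40150 (0.106) were lost without the rml1 root. PA2 (AT5G06720) was lost without the rml1 root (0.0943) or without any 1 of the rml1 shoots (0.0588 to 0.0611), and AT2G18150 without rml1 shoot replicate 2 (0.052) or 3 (0.0516). AT5G39580 was lost without the rml1 root (0.64) or without any 1 shoot array other than wild type replicate 2 (0.073 to 0.0906), and AT5G64110 without the rml1 root (0.36) or without any 1 shoot array (0.0502 to 0.074). The other 42 organ calls held without each array in turn. A fit without 1 root array has 1 root left, so its spread comes from the shoot arrays alone and holds no spread among roots.

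Between the 2 root arrays, the peroxidases differed widely and in both directions. With 1 array per genotype these differences have no replicate check and were not tested. Of 58 members, 28 differed at least 2-fold (percent of all loci 12.6). Of these, 13 were higher in the rml1 root (percent of all loci 5.25) and 15 were lower (percent of all loci 7.33). At 4-fold there were 8 higher (percent of all loci 1.25) and 7 lower (percent of all loci 1.68). The median size of the difference, whatever its sign, was 0.97 log2 units over the members and 0.31 over all loci, and the signed medians were -0.17 and -0.01.

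There were 8 members at least 8-fold higher in the rml1 root than in the wild type root, and 5 of these (AT2G18150, PRX52, PA2, AT5G06730 and AT5G19890) lay below the array median of 3.98 in the wild type root. AT2G18150 had a level of 9.48 in the rml1 root and 3.54 in the wild type root, a 61.2-fold difference. PRX52 (AT5G05340), which takes part in lignin formation in stems, had 7.93 in the rml1 root and 2.41 in the wild type root, or 45.9-fold. The level of PRX52 in the wild type root was within the range of the shoot arrays, 2.36 to 2.69, and the rml1 root was the 1 array of 8 above that range.

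AT4G36430 had 11.02 in the rml1 root and 6.45 in the wild type root, a 23.8-fold difference, and AT5G19890 had 8.25 and 3.86 in the rml1 and wild type roots, or 20.9-fold. PA2, also named PRX53, had 8.10 in the rml1 root and 3.97 in the wild type root (17.5-fold). The level of PA2 in the wild type root was likewise within the range of the shoots (3.39 to 4.15). AT5G39580 had 9.22 in the rml1 root and 5.67 in the wild type root (11.7-fold). AT1G49570 (10.5-fold) and AT5G06730 (10.4-fold) completed this group. Next came AT5G64110 (3.87-fold) and PRXCB (3.76-fold), and the remaining 3 of the 13, AT5G19880, Prx37 (AT4G08770) and AT2G18140, differed by 2.65-fold, 2.17-fold and 2.04-fold. AT2G18140 and AT5G19880 were below the array median in both roots.

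**Figure D2:**
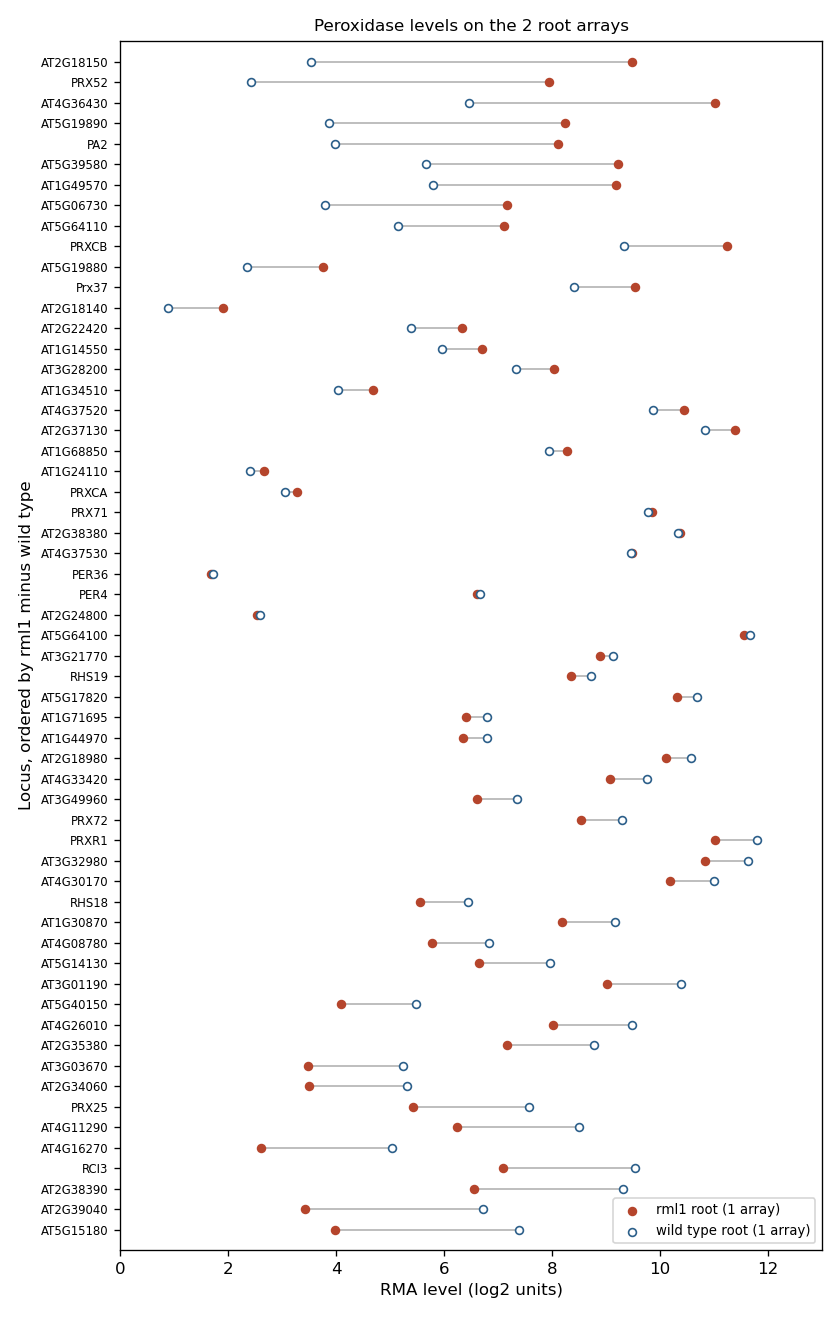
Levels of the 58 peroxidases on the rml1 root array (filled) and the wild type root array (open), in RMA log2 units, ordered by their difference, with 1 array per genotype and therefore no error bars. The 8 members at the top differ by more than 3 log2 units, and AT5G15180 and AT2G39040 at the bottom by more than 3 in the other direction.

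Among the 15 members at least 2-fold lower in the rml1 root, 4 lay below the array median of 3.95 in that root. All 15 were above the array median in the wild type root, where they were the higher, as 11 of the 13 members higher in rml1 were in the rml1 root. AT5G15180 had a level of 3.98 in the rml1 root and 7.39 in the wild type root, so that it was 10.7-fold higher in the wild type. AT2G39040 had 3.43 in the rml1 root and 6.73 in the wild type root (9.86-fold higher in the wild type), and AT2G38390 had 6.56 and 9.31 in the rml1 and wild type roots (6.76-fold). RCI3 (AT1G05260), a peroxidase first isolated as induced by cold and also linked to reactive oxygen production under potassium shortage, had 7.09 in the rml1 root and 9.54 in the wild type root (5.44-fold higher in the wild type).

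Further members were lower in the rml1 root by smaller factors. AT4G16270 had 2.60 in the rml1 root and 5.04 in the wild type root, which placed the rml1 root within the range of the shoots (2.44 to 2.94), and AT4G11290 had 6.24 in the rml1 root and 8.50 in the wild type root. PRX25 (AT2G41480), linked to lignin content of stems, had 5.43 in the rml1 root and 7.57 in the wild type root, 4.42-fold higher in the wild type. PRX72 (AT5G66390), which also acts in lignification, differed by less than 2-fold, with 8.54 in the rml1 root and 9.30 in the wild type root. RHS18 and RHS19, of the root hair role group, were also within 2-fold (-0.89 and -0.37). So were PER4 (AT1G14540), a gene induced by microbial elicitors (-0.06), and PRX71 (AT5G64120), which affects wall stiffness and cell growth (0.07). Elsewhere in the root hair group, AT5G64100 was within 2-fold (-0.11), AT4G26010 was lower in the rml1 root (-1.47) and AT5G39580 was higher (3.55).

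Marker genes of several root tissues differed between the same 2 arrays. Over all loci, 7.33 percent were at least 2-fold lower in the rml1 root and 5.25 percent at least 2-fold higher. All 6 markers of the endodermis (CASP1 to CASP5 and ESB1) were at least 2-fold lower in the rml1 root, with a median level of 5.92 against 8.40 in the wild type root. Of 6 markers of xylem and secondary walls, 4 were at least 2-fold lower, with medians of 3.29 in the rml1 root and 4.60 in the wild type root. Of 6 root hair markers, 1 was at least 2-fold lower, with medians of 4.95 and 5.28 in the rml1 and wild type roots. Of 7 photosynthesis genes measured (10 listed), 1 (RBCS1A) was at least 2-fold higher, with medians of 7.99 in the rml1 root and 7.78 in the wild type root, against 12.59 to 12.65 in the shoots. Of the root hair markers, 3 (LRX1, RSL4 and RHD2) also stand in lists given further on. No marker was listed at 0, and the part of tissue composition in the peroxidase differences was not tested.

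In shoots, where each genotype had 3 arrays, 22 of 58 peroxidases differed between rml1 and the wild type (limma, adjusted p under 0.05; percent of all loci called 23.9). Of these, 11 rose (percent of all loci called up 13.3) and 11 fell (percent of all loci called down 10.6), 36 did not pass at that threshold, and 31 had an unadjusted p under 0.05 (percent of all loci 36.1). Of the 22, 12 changed at least 2-fold (percent of all loci 4.83). The median change of all members was 0.05 log2 units, against -0.03 over all loci. The groups of 3 arrays did not overlap for 29 members (percent of all loci 42.1). Of the 22 called members, 19 were above the median of all loci in at least 1 genotype, as were 32 of the 58, and calls of members near the low end rest on small differences between low values.

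When each of the 6 shoot arrays was left out in turn, 10 calls held, 6 rises and 4 falls. AT4G36430 had levels of 5.52, 5.84 and 5.99 in the rml1 shoots and 3.79, 3.90 and 3.97 in the wild type shoots, a 3.72-fold rise (log2 1.90, SE 0.13, adjusted p = 0.000287). This was the largest rise among the measured members in shoots, and the locus was also 1 of the 8 with the largest rises in the rml1 root. AT2G18150, the member with the largest difference between the roots, had 3.80, 4.01 and 3.93 in rml1 shoots and 2.65, 2.75 and 3.21 in wild type shoots (log2 1.04, SE 0.16, adjusted p = 0.00369).

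PRXR1 (AT4G21960) had 11.14, 11.08 and 11.12 in rml1 shoots and 10.10, 10.19 and 10.02 in wild type shoots, a 2.01-fold rise with little spread in either group (log2 1.01, SE 0.09, adjusted p = 0.000487). PRX25 had 5.16, 5.66 and 5.17 in rml1 shoots and 3.78, 4.47 and 4.15 in wild type shoots (log2 1.20, SE 0.21, adjusted p = 0.00668). This gene was lower in the rml1 root, as given above. AT2G22420 rose by 1.04 (SE 0.16, adjusted p = 0.00434) and Prx37 by 1.03 (SE 0.21, adjusted p = 0.0125), with all 3 rml1 shoots above all 3 wild type shoots for both.

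Among the falls, AT5G39580 had 3.55, 3.58 and 3.06 in rml1 shoots and 5.10, 5.95 and 5.20 in wild type shoots, a log2 change of -2.02 (SE 0.25, adjusted p = 0.00171), so that it was 4.07-fold higher in the wild type. In the roots the same locus was higher in rml1. AT2G34060 had 5.68, 5.79 and 5.48 in rml1 shoots and 6.67, 6.81 and 6.94 in wild type shoots (log2 -1.15, SE 0.12, adjusted p = 0.000863). AT5G64110 had 3.87, 3.99 and 4.26 in rml1 shoots and 4.82, 4.98 and 4.97 in wild type shoots (log2 -0.88, SE 0.12, adjusted p = 0.00268), and AT5G40150 fell by 0.47 (SE 0.09, adjusted p = 0.0121). The groups did not overlap for any of these 4 loci.

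**Figure D3:**
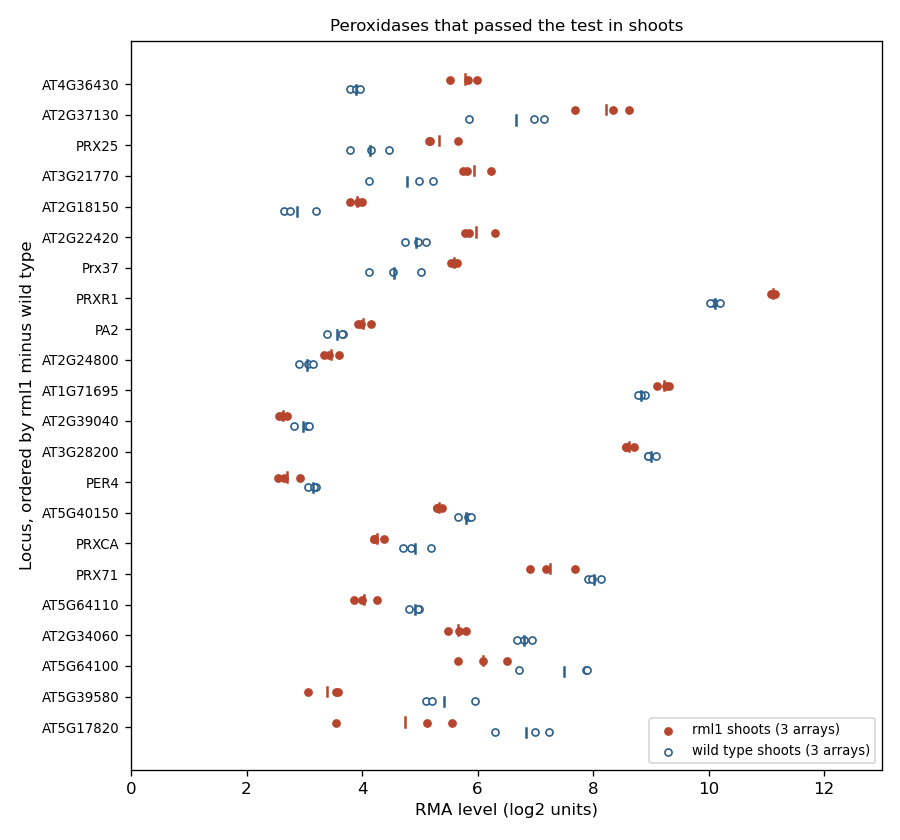
Levels of the 22 peroxidases called in shoots, in RMA log2 units, for each of 3 rml1 shoot arrays (filled, upper) and 3 wild type shoot arrays (open, lower), with a bar at each group mean. Rises stand at the top and falls at the bottom, and the spread among arrays is widest for AT5G17820 and AT2G37130.

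The other 12 calls depended on single arrays, and the even split of rises and falls did too. Without wild type replicate 2 there were 11 rises and 5 falls (percent of all loci called 18.4), and without wild type replicate 3 there were 10 rises and 5 falls (percent of all loci called 17.4). AT5G17820 had the largest fall of all members (log2 -2.11, SE 0.51, adjusted p = 0.024), but its rml1 shoots were spread over 5.55, 5.12 and 3.54, against 6.31, 7.23 and 6.99 in wild type shoots, and it no longer passed once wild type replicate 2 (adjusted p = 0.0744) or 3 (0.0723) was left out. AT2G37130 had 7.68, 8.63 and 8.34 in rml1 shoots and 5.84, 6.97 and 7.15 in wild type shoots (log2 1.56, SE 0.38, adjusted p = 0.0245), and it missed the threshold with rml1 replicate 2 (0.0733) or 3 (0.082) left out. AT3G21770 (log2 1.16, SE 0.29) was lost without any 1 of the rml1 arrays (0.0583 to 0.0776). AT5G64100 (log2 -1.41, SE 0.35) was lost without replicate 2 or 3 of either genotype (0.0675 to 0.0907). All rml1 shoots lay outside the range of the wild type shoots for each of these 4 loci.

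PRXCA fell by 0.66 (SE 0.14, adjusted p = 0.0143), which missed the threshold with rml1 replicate 3 left out (0.0549), while PRXCB did not pass (log2 -0.15, SE 0.24). The remaining 7 calls were lost without any of 4 or 5 of the 6 arrays and had changes of at most 0.75 log2 units. PRX71, at 7.68, 6.91 and 7.18 in rml1 shoots and 8.13, 7.91 and 7.98 in wild type shoots, fell by 0.75 (SE 0.19, adjusted p = 0.03), and it kept its call on leaving out 1 array in the case of rml1 replicate 1 alone (0.0617 to 0.097 for the other five), and missed it with array weights (0.07). PER4 fell by 0.44 (SE 0.12) and kept its call on leaving out rml1 replicate 3 alone (0.0627 to 0.105 for the other five), and missed it with quantile normalization (0.112).

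PA2 rose by 0.44 (SE 0.11) and AT2G39040 fell by 0.35 (SE 0.10), and both kept their calls on leaving out wild type replicate 1 alone (for the other five 0.0563 to 0.0824 for PA2 and 0.0851 to 0.133 for AT2G39040). AT2G39040 was also lost with quantile normalization (0.128) and with eBayes run as trended and robust (0.06). AT1G71695 rose by 0.39 (SE 0.09; lost without replicates 1 and 3 of rml1 and 2 and 3 of the wild type, 0.0636 to 0.086). AT2G24800 rose by 0.42 (SE 0.11; lost without replicates 1 and 2 of either genotype, 0.0711 to 0.0803) and AT3G28200 fell by 0.38 (SE 0.09; lost without replicates 1 and 2 of rml1 and 2 and 3 of the wild type, 0.0506 to 0.0876).

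Among the 36 members that did not pass, changes ran from -0.69 to 1.28 log2 units, and in 7 of them the groups did not overlap. AT2G38380 had 6.12, 6.40 and 6.33 in rml1 shoots and 4.0, 5.34 and 5.69 in wild type shoots, where replicate 1 of the wild type lay apart from the other two (log2 1.28, SE 0.40, adjusted p = 0.0584). AT4G30170 (log2 1.00, SE 0.30, adjusted p = 0.0516) and RCI3 (log2 -0.48, SE 0.14, adjusted p = 0.0518) were close to the threshold. AT2G38380 passed without wild type replicate 1 (adjusted p = 0.0173) or 3 (0.0322), AT4G30170 without wild type replicate 2 (0.00176) and RCI3 without rml1 replicate 2 (0.0382). RCI3 also passed with array weights (0.0254), quantile normalization (0.0284), median centring (0.0472), trended and robust eBayes (0.0485) and the filter at the median (0.0229). AT4G30170 likewise passed with median centring (0.0473), trended and robust eBayes (0.0451) and that filter (0.0232), and AT2G38380 with the filter (0.0269). Wild type replicate 1 had the lowest of the 3 wild type values for 39 of the 58 members and, at a similar share, for 7 of the 11 that rose. How often this array was the lowest over all loci was not counted. With that array left out, AT2G38390 (log2 -0.91, adjusted p = 0.00566), AT3G01190 (-1.03, 0.015) and AT2G18980 (-0.84, 0.0186) passed as falls. PRX72 (log2 0.66, SE 0.27), RHS18 (log2 -0.19, SE 0.21), RHS19 (log2 0.13, SE 0.32) and PRX52 (log2 -0.11, SE 0.10) did not pass either. The median level of 6 root hair markers lay at 3.03 to 3.22 for rml1 shoots against 3.32 to 3.49 for the wild type, and that of 6 endodermis markers at 4.78 to 5.17 for rml1 shoots against 4.85 to 4.90 for the wild type. Of the root hair markers, LRX1 fell in shoots, as given below, and 5 did not pass (percent of all loci called down 10.6). Of the endodermis markers, CASP1 rose (log2 0.57, SE 0.13, limma adjusted p = 0.0172) and 5 did not pass (percent of all loci called up 13.3). The CASP1 call was lost without rml1 replicate 2 (0.0523) or 3 (0.0658). The part of root tissue left on shoots in these values was not tested.

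Shoot and root differences could be set side by side for the 22 members called in shoots, with the difference between organs left untested because each root group is 1 array. Of the 22, 7 differed at least 2-fold in the same direction between the roots, 3 at least 2-fold in the opposite direction, and 12 less than 2-fold. These directions were not counted over all loci called in shoots, so the split is not read as particular to the family. The 7 were AT4G36430, AT2G18150, PA2 and Prx37 among the rises and AT2G34060, AT5G40150 and AT2G39040 among the falls. The 3 that went opposite ways were AT5G39580 (log2 -2.02 in shoots and 3.55 in roots), AT5G64110 (-0.88 and 1.95) and PRX25 (1.20 and -2.14). Of the 28 members with a 2-fold difference between the roots, 10 were called in shoots (35.7%, near the 37.9% of all members). Among all loci with such a root difference the percent called was 39.7.

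**Figure D4:**
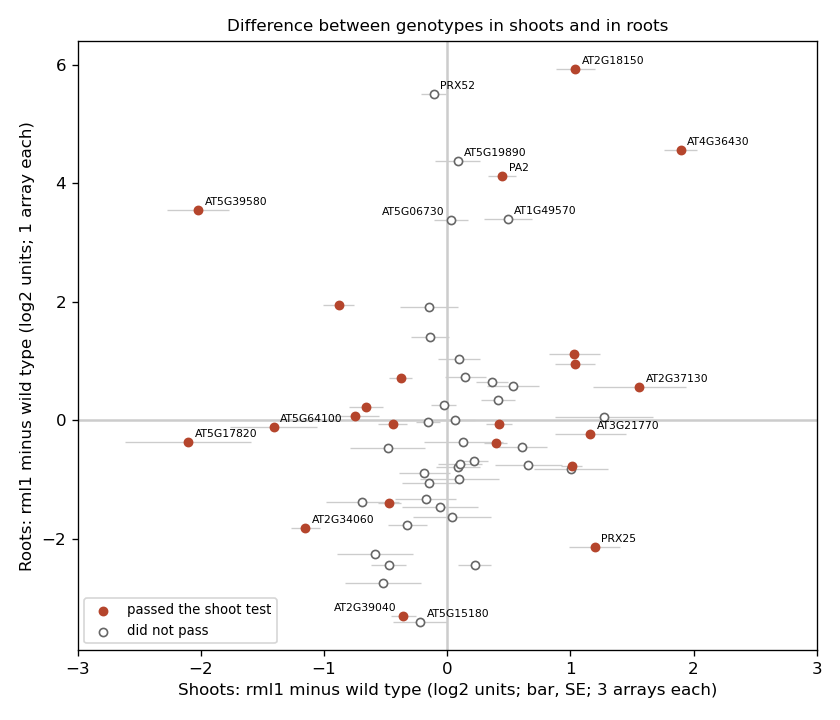
Difference between rml1 and the wild type for each of the 58 peroxidases in shoots (horizontal axis, limma estimate with its SE, 3 arrays each) and in roots (vertical axis, 1 array each, no error), both in log2 units, filled where the shoot test passed and open where it did not. AT4G36430 and AT2G18150 lie at the upper right, AT5G39580 at the upper left and PRX25 at the lower right, and PRX52 and AT5G19890 lie high near the shoot value of 0.

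Of the 60 listed loci, 20 stand next to another member in the RefSeq order of protein-coding genes, as 11 neighbouring pairs, of which 9 had both loci measured. No member row had values identical to another row. Whether probes of a locus also take up transcript of its neighbour was not tested. The pairs differed in how far their members moved together. PA2 and AT5G06730 were both more than 10-fold higher in the rml1 root, and both AT5G19880 and AT5G19890 were higher there, by 2.65-fold and 20.9-fold. AT2G18150 was 61.2-fold higher in the rml1 root, whereas its neighbour AT2G18140 had 1.91 in the rml1 root and 0.88 in the wild type root, both below the lower quartile of their arrays (2.20 and 2.30).

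Opposite signs between the roots were seen in 4 pairs. Prx37 was higher in the rml1 root by 1.12 log2 units and its neighbour AT4G08780 differed by -1.05, while AT2G38380 differed by 0.05 and AT2G38390 by -2.76. The other pairs with opposite signs were PER4 with AT1G14550 (-0.06 and 0.73) and AT5G64100 with AT5G64110 (-0.11 and 1.95). In shoots, AT5G64100, AT5G64110 and PRX71, which lie side by side, all fell, although for AT5G64110 alone the call held without each array. These were the 2 pairs with both loci called, and in 4 pairs 1 locus was called and the other did not pass.

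Genes that supply the enzymes with oxidant, compete for their substrates, or are their substrates were read from 4 further lists. Of 10 RBOH NADPH oxidases, 1 rose in shoots (percent of all loci called up 13.3) and 9 did not pass (list median -0.07). RBOHD, the main oxidase of the defence burst, had 5.20, 5.18 and 5.19 in rml1 shoots and 4.78, 4.67 and 4.69 in wild type shoots (log2 0.48, SE 0.08, adjusted p = 0.0058). Between the roots, the difference was at least 2-fold for 1 of the 10 oxidases (AT4G25090, -1.39), against 12.6 percent of all loci. RHD2, the oxidase needed for root hair growth, had 4.73 in the rml1 root and 5.04 in the wild type root.

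Laccases are copper enzymes that also polymerise lignin monomers. Of 17, 3 fell in shoots (percent of all loci called down 10.6) and 14 did not pass (list median -0.27), so the 3 calls are not read as a direction of the list. LAC8 had 4.0, 3.95 and 4.30 in rml1 shoots and 5.52, 5.59 and 5.80 in wild type shoots (log2 -1.55, SE 0.13, adjusted p = 0.000465), and LAC7 fell by 1.32 (SE 0.21, adjusted p = 0.00488). LAC2 fell by 0.41 (SE 0.09, adjusted p = 0.016), which missed the threshold with rml1 replicate 3 (0.0608) or wild type replicate 3 (0.0528) left out. In the roots, 5 laccases were at least 2-fold lower in rml1 (percent of all loci 7.33) and 1 was higher (LAC12, 1.59, percent of all loci 5.25). The lower ones included LAC1 (-2.18) and the 3 laccases of stem lignin, IRX12 (also named LAC4; -1.71), LAC11 (-1.73) and LAC17 (-1.45).

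Extensins and related wall proteins, which peroxidases cross-link, were measured for 11 of 12 listed genes. Of these, 5 fell in shoots (percent of all loci called down 10.6) and 6 did not pass (list median -0.40). EXT3 had the largest change (log2 -1.14, SE 0.29, adjusted p = 0.029), lost without replicates 1 and 3 of rml1 and 2 and 3 of the wild type (0.0722 to 0.0995). LRX3, a leucine-rich repeat extensin, fell by 0.67 (SE 0.13, adjusted p = 0.00968), a call that held without each array. LRX1, AT3G24480 and AT4G18670 fell by 0.43, 0.41 and 0.40, and these calls were lost without 4 or 5 of the arrays (adjusted p 0.0585 to 0.111). Between the roots, 1 of the 11 differed at least 2-fold (HRGP1, -1.36), against 12.6 percent of all loci.

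Of 9 transcription factors linked to peroxidase genes, root hairs or lignin, 0 were called in shoots by limma (percent of all loci called 23.9). An unadjusted p under 0.05 was seen for 2 of them, MYB36 and MYB58 (percent of all loci 36.1). MYB36, a regulator of Casparian strip genes, was closest (log2 0.69, SE 0.21, adjusted p = 0.0557). In the roots UPB1, the repressor of peroxidase genes in the elongating zone, had 5.17 in the rml1 root and 6.99 in the wild type root, a difference of -1.82, the largest of the list. The peroxidases of the UPB1 target role group, AT4G11290, AT4G16270 and AT5G17820, differed by -2.26, -2.44 and -0.38 between the same arrays. A link between these values and UPB1 was not tested. MYB46, a regulator of secondary walls, differed by -1.25 and MYB63, a regulator of lignin genes, by 1.09. The root hair regulators RHD6, RSL2 and RSL4 were within 2-fold (0.77, -0.59 and 0.35).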

How the data were processed

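Per the labels, RNA from 7-day-old seedlings was hybridised to 1 tiling array per pool. The deposited table holds log2 values that the authors made with RMA, a method that corrects background, normalizes and summarises probes, as the submitters' processing notes name it, with version and annotation not given in the sources used here. Its 30237 rows were averaged to 29920 loci by locus code. Of the members, AT4G37530 had 2 rows. Detection above background was not analysed here.

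Tests used lmFit and eBayes of the limma package (version 3.58.1, under R version 4.3.3; Benjamini-Hochberg adjustment over all 29920 loci, called at 0.05). The shoot fit held 3 arrays per genotype, which the labels call biological replicates. The organ fit held all 8 arrays with organ and genotype as terms. Roots, with 1 array per genotype, were compared by their difference, counted at 2-fold. The small number of arrays limits precision. The fits were tested on simulated data with the spread of the wild type shoots on every array. Those data held no separate spread among roots and no response to genotype that differs between organs, so these features of the organ fit were not checked.

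Any member may be named. Described in full are those called in shoots, the 6 with the largest root differences in each direction and those of role groups. Roles are given here for members named in RefSeq and for the root hair and UPB1 target groups. For the other lists the rule names called genes and the largest change; further list genes were picked after their values were seen. The family and the other lists were picked as subjects with earlier results of these data known, while membership follows gene family. Alternatives were normalization, a filter at the median, other thresholds, eBayes options, array weights, the replicate block and leaving out each array.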

Additional observations from a re-analysis of the deposited data

Results flagged for a closer look

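For 10 peroxidases called in shoots, all 3 rml1 shoots lay on one side of the wild type shoots while the single rml1 root lay on the other side of the wild type root. This difference between organs was not tested, since each root group is 1 array. The other 12 of the 22 called members had the same sign in shoots and roots, and the same split over all loci called in shoots was not counted. The root and shoot differences (rml1 minus wild type, log2 units) were 3.55 and -2.02 for AT5G39580, 1.95 and -0.88 for AT5G64110, and -2.14 and 1.2 for PRX25. These 3 loci were the ones past 2-fold in the roots. PRXR1 had -0.77 in roots and 1.01 in shoots, and AT3G28200 had 0.71 in roots and -0.38 in shoots. For the other five the root difference was smaller still, at -0.39 for AT1G71695 (0.39 in shoots), -0.23 for AT3G21770 (1.16 in shoots), 0.22 for PRXCA (-0.66 in shoots), 0.072 for PRX71 (-0.75 in shoots) and -0.061 for AT2G24800 (0.42 in shoots; the root value was 0.033 under quantile normalization).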

How the results depend on the processing

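The count of 22 peroxidases called in shoots became 8 (5 higher, 3 lower) at an adjusted p under 0.01 and 12 (8 higher, 4 lower) when a 2-fold change was also asked. Leaving out 1 array at a time gave 14 to 23, with 7 to 11 rises and 5 to 12 falls. The percent of all loci called also moved, to 15.1 to 21.7 from 23.9 in the main fit. The count of members was 22 to 24 under quantile normalization, median centring, the filter at the median (58 members reduced to 32), trended and robust eBayes, array weights and each table row taken alone. The percent of all loci called was 49.9 with the filter and 23.2 to 26.2 under the others. With the replicate number as a block, 19 were called (10 higher, 9 lower, percent of all loci called 17.3), of which 15 were among the 22, although the numbers did not pair the samples (correlations of same-numbered deviations -0.0346, -0.00274 and -0.0981). The 48 organ calls became 42 to 50 under the alternatives run, and 44 to 50 when 1 array was left out. The 28 members with a 2-fold root difference became 15 at 4-fold, 28 under quantile normalization or median centring, and 26 of 52 with the filter at the median. No difference called as reported or in the alternative changed sign. The shoot difference changed sign in 30 of 728 recomputed values of all members, called or not. These 30 values came from 15 members and were called in neither fit. Ranges over the shoot arrays left out were AT1G24110 (-0.093 to 0.029), AT1G30870 (-0.15 to 0.42), AT2G18140 (-0.046 to 0.24), AT2G35380 (-0.18 to 0.41), AT3G32980 (-0.10 to 0.25), AT3G49960 (-0.0028 to 0.30), AT4G08780 (-0.35 to 0.025), AT4G26010 (-0.44 to 0.17), AT4G37530 (-0.10 to 0.16), AT5G06730 (-0.095 to 0.12), AT5G14130 (-0.42 to 0.11), AT5G15180 (-0.41 to 0.0021), AT5G19890 (-0.080 to 0.27) and RHS19 (-0.16 to 0.53). With array weights the changed values were AT2G35380 (-0.039), AT5G06730 (-0.041) and AT5G19890 (-0.014). With quantile normalization these were AT1G24110 (0.091), AT4G26010 (0.029), AT4G37530 (-0.041) and PRX52 (0.0052). The organ difference changed sign on leaving out 1 root array, with these ranges over all arrays left out, for AT2G18140 (-0.81 to 0.12), AT4G16270 (-0.17 to 2.50), PRXR1 (-0.091 to 1.69), PRX52 (-0.22 to 5.41) and AT5G19880 (-0.059 to 1.48). In roots AT2G24800 (0.033 with quantile normalization) and PER36 (0.021 with it and 0.0062 with median centring) changed sign. The cause was not tested. With 3 shoot arrays per genotype and 1 root array each, calls near the threshold rest on single arrays, and low values have no background estimate here.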
